A study of Mus musculus with 6 samples.

Results

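The transcripts described here are mouse cDNA clones that the array names only by a GenBank accession beginning with AK. Members were taken as every non-control probe whose transcript name was AK followed by digits, without use of any measured value. They numbered 6036 of the 56605 non-control probes of the array (10.7%) and stood for 5897 accessions, of which 139 had 2 probes and 5758 had 1. None of the accessions was found in the RefSeq gene table used here (assembly GRCm38.p6), so each clone is named by its accession, and by its probe where an accession had 2. Neither the clones' sequences nor their genome positions were in the files and tables used here, so none is shown.

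Expression was measured in male mouse lung on 6 one-colour Agilent arrays, 2 for each of 3 groups, each described as 2 sets of 50000 cells. Myofibroblasts were sorted as CD49e+ Sca1- Lin- cells from lungs of bleomycin-treated mice, and steady-state fibroblasts as CD140a+ Lin- cells from untreated lungs. Homogenates of untreated lung, which hold all the cells of the organ, served as the controls. The sort gate and the bleomycin treatment changed together between the sorted groups, so the part of each cannot be told apart. The sources used here state neither strain nor age. They do not say whether both samples of a group were taken from different mice, so p-values measure only how far these samples differ, and that difference may be technical. All 6 arrays lay on 1 slide and were read in 1 scan. The sorted samples filled 1 row of that slide and the homogenates lay in the second, so a row effect and a difference of the homogenates cannot be told apart.

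As background, AK accessions were given to full-length mouse cDNA clones, most of them from the RIKEN cDNA sequencing effort. Many such clones were later assigned to known genes, while others remained as non-coding, antisense, intronic or rarely spliced transcripts with no gene name. An array probe made to such a clone reports the RNA that its short oligonucleotide binds, whatever that RNA encodes. Myofibroblasts are the contractile, matrix-producing cells of injured tissue, and bleomycin is a drug used to induce lung fibrosis in mice. The comparison asks which of these little-described transcripts differ between the fibrotic and the resting fibroblast populations and the whole lung.

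Signals are given as multiples of the 75th percentile of all non-control spots on the same array, and differences on the log2 scale. A probe's level depends on its own sequence, so levels are compared between arrays for 1 clone and not between clones. Marker genes were read in the same way as a check of the labels. The summed signal of 5 myofibroblast markers was 297 to 332 in the myofibroblasts, 18.6 to 28.8 in the fibroblasts and 36.3 to 37.4 in the homogenates. The 7 resident fibroblast markers ran against the labels in sum, at 871 to 902 in the myofibroblasts, 378 to 478 in the fibroblasts and 55.8 to 61.4 in the homogenates. The collagen genes Col1a1 and Col1a2 carried most of that sum, while the sort marker Pdgfra (CD140a) read 9.66 and 10.2 in the myofibroblasts and 73.5 and 35.1 in the fibroblasts. Endothelial markers summed to at most 0.108 and 0.194 in the sorted groups and to 44.1 to 47.1 in the homogenates. Leukocyte markers summed to 1.20 to 1.48, 1.12 to 1.40 and 43.5 to 44.2 in the same order. Epithelial markers, carried mainly by the secretoglobin gene Scgb1a1, summed to 10.9 to 16.5 in the myofibroblasts, 70.1 to 119 in the fibroblasts and 778 to 787 in the homogenates. The 5 smooth muscle and pericyte markers summed to 43.0 to 43.1, 15.4 to 39.2 and 14.5 to 15.1 in the same order. Of them Cnn1, Cspg4 and Myh11 were higher in the myofibroblasts than in the fibroblasts, by log2 differences of 4.31, 3.26 and 2.10. Pdgfrb differed by 0.52 and Rgs5 by 0.02. The part of such cells in clones higher in the myofibroblasts was not tested.

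A smaller share of the clones than of all other probes was detected on every array, and the clones' share was lowest in the myofibroblasts. Most of the other probes, 29638 of 50569, were RefSeq mRNA probes. On the 2 myofibroblast arrays 50.6% and 49.1% of the clones were well above background, the scanner software's detection flag. On the fibroblast arrays the shares were 56.3% and 53.5%, and on the homogenate arrays 57.3% and 60.3%. The 3 groups did not overlap. Among the 50569 other probes the myofibroblast and fibroblast arrays overlapped, at 66.7% and 65.7% against 66.7% and 66.0%, with the homogenates at 71.7% and 73.6%. No test was made of these shares.

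**Figure D1:**
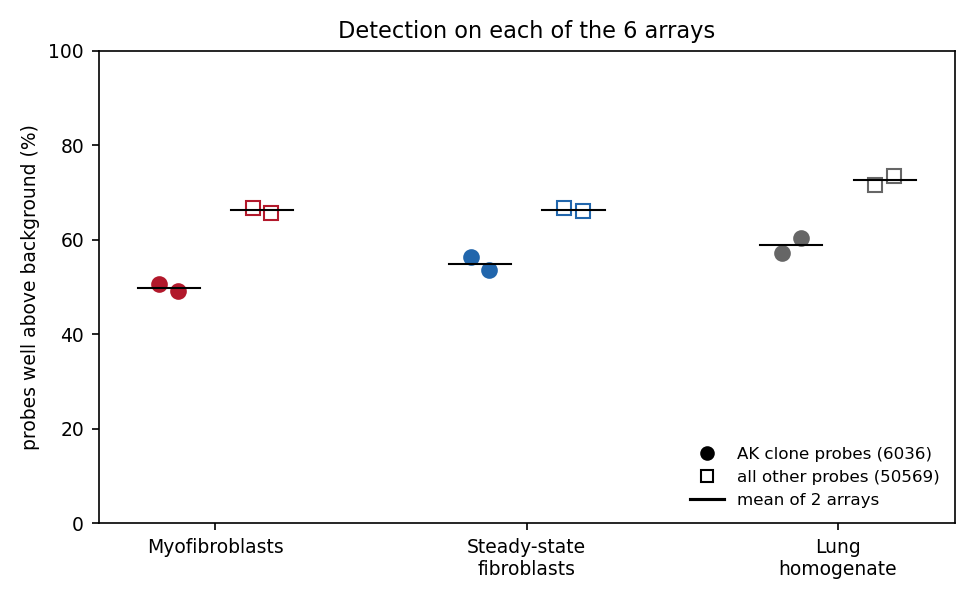
Share of probes well above background (y axis, percent) on each of the 6 arrays, grouped by sample type on the x axis. Filled circles are the AK clone probes and open squares all other probes, each symbol is 1 array and each line the mean of 2 arrays; the clones sit lowest in the myofibroblasts (50.6% and 49.1%), while the other probes of both sorted groups lie between 65.7% and 66.7%.

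Counted on both arrays of a group, 2627 clones (43.5%) were detected in the myofibroblasts, 2988 (49.5%) in the fibroblasts and 3239 (53.7%) in the homogenates. The corresponding shares of the other probes were 61.8%, 62.1% and 69.1%. All 3 groups shared 2330 clones, which is 38.6% of the members and is the same set as the clones detected on each of the 6 arrays. At the other end, 1655 clones (27.4%) were not well above background on any array, against 17.9% of the other probes. A further group of 393 clones (6.51%) was detected on both arrays of the fibroblasts and of the homogenates but not on both of the myofibroblasts, against 3.87% of the other probes. The reverse pattern for the sorted groups, myofibroblasts and homogenates without the fibroblasts, held for 116 clones (1.92%), against 3.1% of the other probes. On both arrays of the fibroblasts alone 184 clones (3.05%) were detected, against 1.42% of the other probes, and on both arrays of the myofibroblasts alone 100 clones (1.66%), against 1.86%.

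Counting detected and undetected clones alike, the share above the 75th percentile of their array was 8.02% and 7.32% in the myofibroblasts, 11.3% and 10.3% in the fibroblasts and 9.72% and 9.68% in the homogenates. Signals above 10 times the 75th percentile on both arrays of a group were reached by 107 clones in the myofibroblasts, 116 in the fibroblasts and 115 in the homogenates. Signals above 100 times it were reached by 21, 24 and 24 clones. Replicate arrays differed by amounts that depended on the group. Between the 2 arrays of a group the log2 difference of the clones detected on both had an SD of 0.70 in the myofibroblasts, 0.79 in the fibroblasts and 0.48 in the homogenates. The other probes gave 0.61, 0.91 and 0.42. The fibroblast arrays thus lay farthest apart, with 18.5% of their detected clones over 2-fold apart, against 13.0% in the myofibroblasts and 5.65% in the homogenates.

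The comparison of myofibroblasts with steady-state fibroblasts showed the clones shifted towards lower signal in the myofibroblasts. The 2330 clones well above background on all 6 arrays were described first, because none of them entered through the group in which it was high. Their median signal on the myofibroblast arrays was 0.278 and 0.258 of the 75th percentile. The fibroblast arrays gave 0.411 and 0.414, and the homogenate arrays 0.363 and 0.373. The myofibroblast arrays were the lowest and did not overlap the other 4. The 28252 other probes detected on all 6 arrays had medians between 0.658 and 0.699, and there the homogenates, at 0.667 and 0.658, were the lowest, by a narrow margin and without overlap.

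The median log2 difference of these clones between myofibroblasts and fibroblasts was -0.50, with quartiles of -1.02 and 0.01, and 74.9% of them lay below 0. For the other probes the median was -0.06 and 52.7% lay below 0. Clones more than 2-fold lower made up 25.9%, against 14.4% of the other probes, and clones more than 2-fold higher 4.55%, against 16.0%. Both myofibroblast arrays were below both fibroblast arrays for 1272 clones (54.6%), where 34.3% of all probes detected on the 6 arrays had that order. The reverse order held for 271 clones (11.6%), against 28.4% of all those probes. In bulk RNA, fewer cells of a type and less RNA per cell cannot be told apart.

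The shift was present between any 2 arrays of the sorted groups. Taking the median difference of the clones less that of the other probes, the 4 pairs of a myofibroblast and a fibroblast array gave -0.39, -0.40, -0.46 and -0.54. Between myofibroblast and homogenate arrays the 4 pairs gave -0.41, -0.44, -0.53 and -0.57. Between fibroblast and homogenate arrays the values were 0.056, 0.027, 0.0049 and -0.0037. Within groups the same quantity was 0.12 between the myofibroblast arrays, 0.02 between the fibroblast arrays and -0.03 between the homogenate arrays. It was smaller with another background correction (normexp), at -0.22 between the sorted groups and -0.23 between myofibroblasts and homogenates. Quantile scaling gave -0.38 and -0.34. Scaling on the median and the authors' constants move all probes of an array alike and cannot change this quantity. These comparisons share the myofibroblast arrays, so they do not stand for each other.

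**Figure D2:**
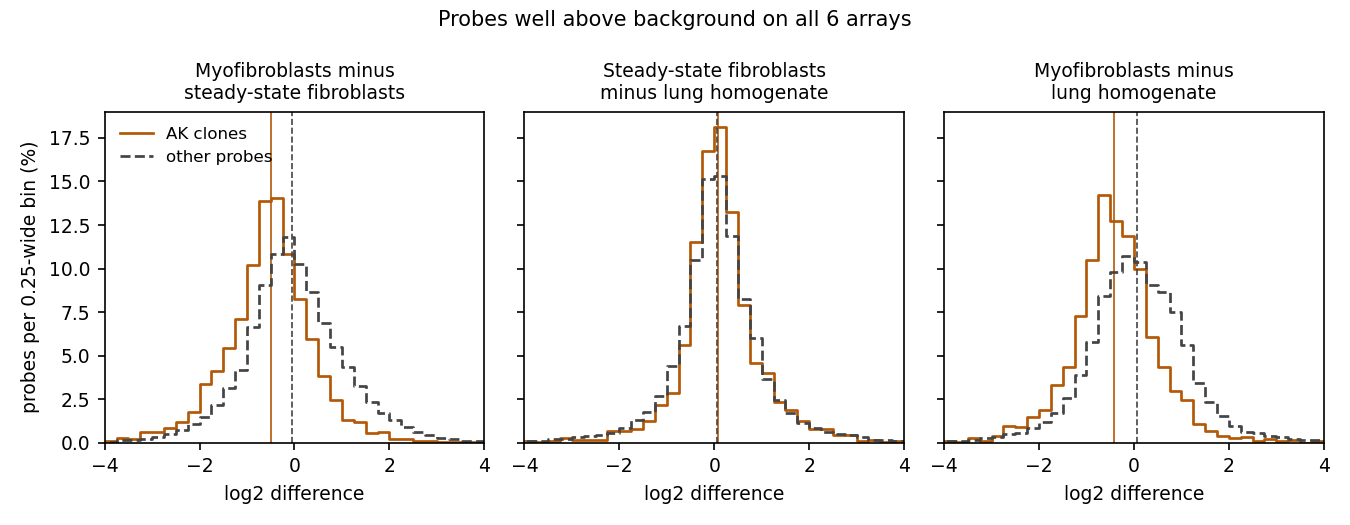
Distribution of the log2 difference (x axis, drawn from -4 to 4) in each of the 3 comparisons, as the percentage of probes in each bin (y axis), for the 2330 AK clones (solid line) and the 28252 other probes (dashed line) well above background on all 6 arrays. Thin vertical lines mark the medians, which for the clones are -0.50, 0.08 and -0.43 from left to right and for the other probes -0.06, 0.06 and 0.05.

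Of these 2330 clones, 249 (10.7%) were called lower in the myofibroblasts than in the fibroblasts and 33 (1.42%) higher, by limma at an adjusted p under 0.05 over all probes tested. Over all 30582 probes detected on the 6 arrays, 6.16% were called lower and 5.39% higher. The clones had the largest share called lower and the smallest share called higher of the 8 accession classes compared on this set. RefSeq mRNA probes gave 5.14% lower and 6.36% higher, RefSeq non-coding RNAs 6.79% and 4.03%, and Ensembl transcripts 8.48% and 5.82%. Predicted RefSeq mRNAs gave 8.07% and 2.11%, predicted non-coding RNAs 7.09% and 1.99%, and genome-coordinate probes 5.86% and 3.21%. All of these classes but RefSeq mRNA thus leaned the same way as the clones, to a lesser degree. Median differences of the classes that leaned this way lay between -0.20 and -0.33. The clones had -0.50, RefSeq mRNA 0.02 and the remaining accessions -0.05. Differences between classes were not tested, because the probes of a class are not independent samples.

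**Figure D3:**
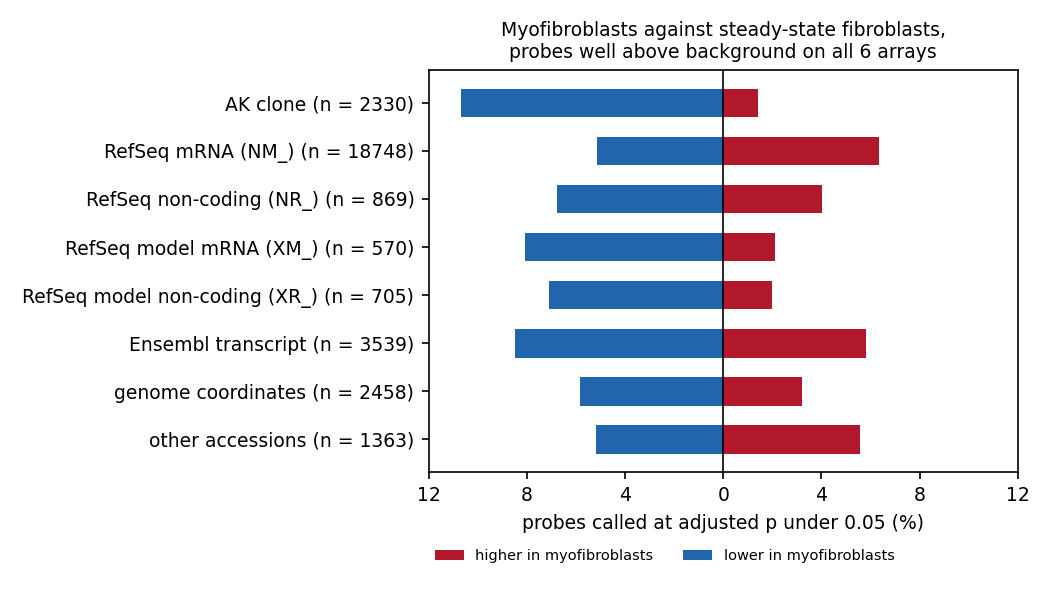
Share of probes well above background on all 6 arrays that limma called lower (bars to the left) or higher (bars to the right) in myofibroblasts than in steady-state fibroblasts, in percent on the x axis, for each accession class on the y axis with its number of probes. The AK clones reach 10.7% to the left and 1.42% to the right, and the RefSeq mRNA probes 5.14% and 6.36%.

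Counting also the clones detected in only 1 of the 2 sorted groups, 3204 of the 6036 were tested, and 82 were called higher and 423 lower in the myofibroblasts. The tested set holds clones that entered through the group in which they were high, so the counts describe the members and are not a share of all of them. More clones could enter through the fibroblasts (2988 detected on both arrays) than through the myofibroblasts (2627). An excess of lower calls in this set is therefore partly set by entry. Over all probes tested, 14% were called, 6.39% higher and 7.63% lower. With no filter at all, 56 clones were called higher and 323 lower among the 6036, where 3.06% and 3.71% of all probes were called. The counts changed with each array left out. They came to 284 clones without myofibroblast array 1, 212 without myofibroblast array 2, 249 without fibroblast array 1 and 780 without fibroblast array 2. Leaving out either homogenate array gave 154, although the homogenates enter this comparison only through the shared estimate of the spread. Lower calls outnumbered higher ones under each of these settings, with 68.9% to 79.2% of the called clones lower against 83.8% with all arrays.

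The clones detected on all 6 arrays were also read at matched signal, in 4 ranges of mean signal over the arrays that each held 582 or 583 clones, with the other probes placed in the same ranges. From the dimmest to the brightest range 6.17%, 10.3%, 14.4% and 11.8% of the clones were called lower in the myofibroblasts than in the fibroblasts. The other probes of those ranges gave 3.27%, 6.23%, 7.14% and 5.70%. The clones called higher came to 0.515%, 0.687%, 1.37% and 3.09%, against 1.62%, 3.83%, 5.37% and 8.08%. In all 4 ranges more of the clones than of the other probes were called lower, and fewer were called higher.

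**Figure D4:**
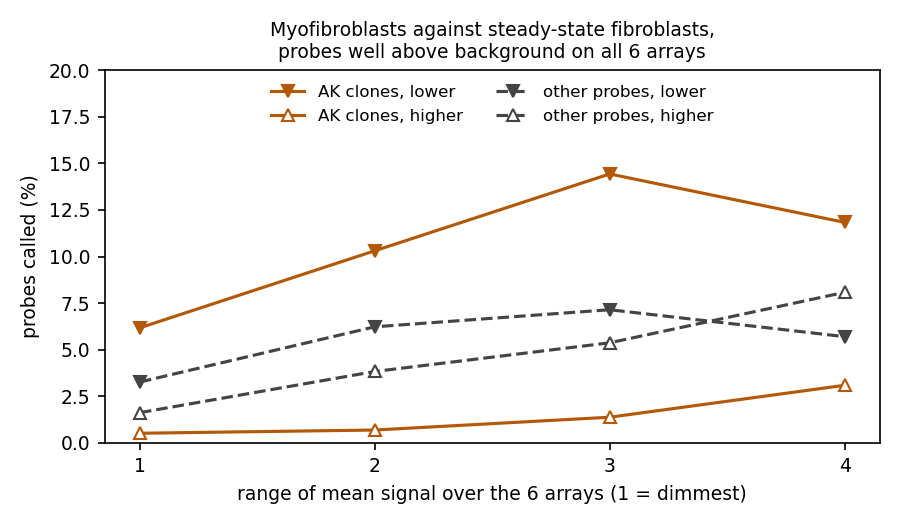
Share of probes well above background on all 6 arrays that were called lower (filled) or higher (open) in myofibroblasts than in steady-state fibroblasts (y axis, percent), in 4 ranges of mean signal that hold near-equal numbers of clones (x axis, dimmest first), for AK clones (solid lines) and other probes (dashed lines). The clones called lower (6.17% to 14.4%) lie above the other probes called lower (3.27% to 7.14%) in each range, and the clones called higher (0.515% to 3.09%) below the other probes called higher (1.62% to 8.08%).

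Among the clones higher in myofibroblasts and measured on all 4 sorted arrays, AK035610 had the largest difference. Its signal was 10.6 and 14.0 in the myofibroblasts, 0.108 and 0.0868 in the fibroblasts and 0.0114 and 0.0305 in the homogenates, where it was not well above background. The myofibroblast arrays stood far above the other 4, with a log2 difference of 6.98 ± 0.52 (SE, limma adjusted p = 0.00575, n = 2 per group) from the fibroblasts. AK017909 read 1.98 and 2.14 in the myofibroblasts, 0.175 and 0.105 in the fibroblasts and 10.4 and 10.2 in the homogenates. The 3 groups did not overlap, and the homogenates were the highest. The difference between the sorted groups was 3.92 ± 0.33 (limma adjusted p = 0.00679). Sizes given for named clones are those of the main scaling. With normexp they were smaller, at 5.14 for AK035610 and 2.59 for AK017909.

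AK199574 read 1.27 and 1.48 in the myofibroblasts, 0.108 and 0.137 in the fibroblasts and 0.0891 and 0.0689 in the homogenates. Only its myofibroblast arrays were bright among the 6, and the difference from the fibroblasts was 3.49 ± 0.28 (limma adjusted p = 0.00664). AK028812 gave graded signals, at 2.95 and 1.81 in the myofibroblasts, 0.415 and 0.222 in the fibroblasts and 0.0209 and 0.0323 in the homogenates. The groups did not overlap, and the log2 difference between the sorted groups was 2.93 ± 0.47 (limma adjusted p = 0.0238). AK081273 read 50.3 and 27.6 in the myofibroblasts, 3.15 and 8.30 in the fibroblasts and 10.3 and 10.1 in the homogenates. Its fibroblast arrays were the lowest and differed from each other by more than 2-fold, and the difference between the sorted groups was 2.86 ± 0.56 (limma adjusted p = 0.0363).

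The other 3 clones with large measured differences in this direction were AK006119 at 3.67, AK034906 at 3.04 and AK179413 at 2.66. AK034906 resembled AK017909 in that the homogenates, at 7.45 and 8.80, were brighter than the myofibroblasts, at 2.40 and 2.18. The calls of AK006119, AK034906 and AK028812 were lost without either myofibroblast array or either homogenate array, with adjusted p from 0.0843 to 0.11, from 0.109 to 0.141 and from 0.059 to 0.0777. AK081273 lost its call without any 1 array but fibroblast array 2, with adjusted p from 0.0726 to 0.111. AK179413 lost it without any 1 array but myofibroblast array 2, with adjusted p from 0.0545 to 0.0946. AK035610, AK017909 and AK199574 kept theirs with each array left out, at adjusted p of at most 0.036.

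**Figure D5:**
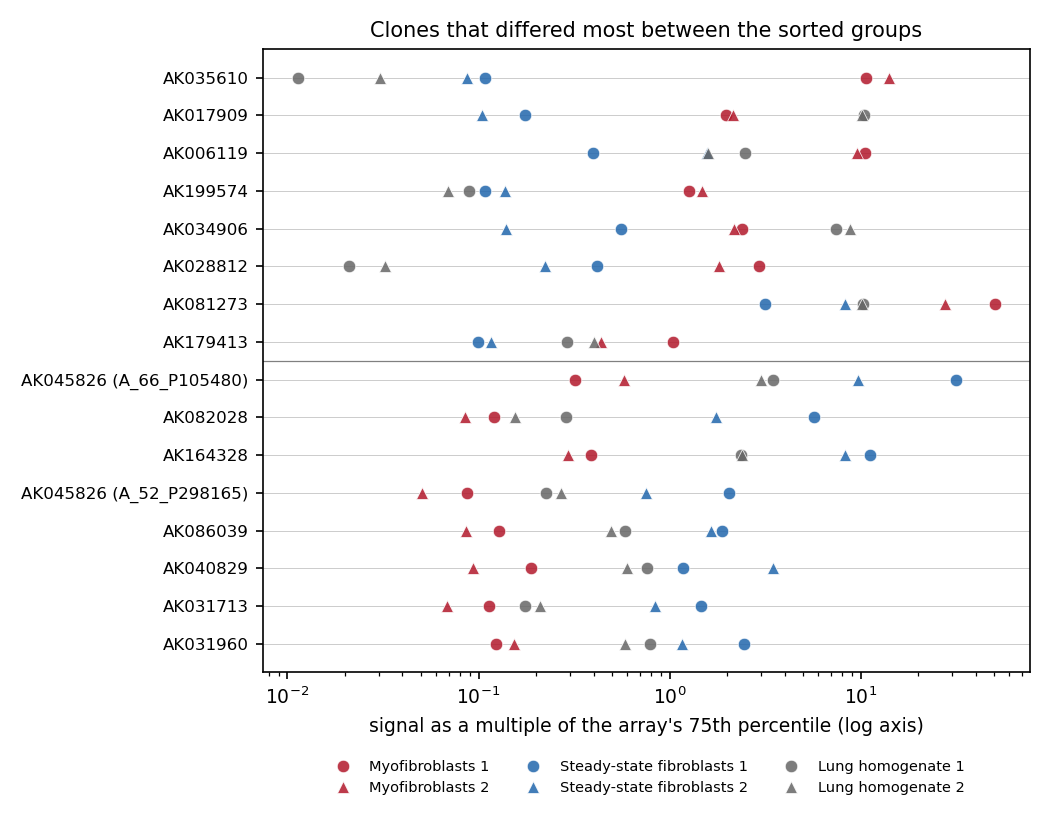
Signal of the 8 clones with the largest measured differences in each direction between the sorted groups (rows), as a multiple of the array's 75th percentile on a log x axis. Each symbol is 1 array, coloured by group; the myofibroblast arrays lie to the right of the fibroblast arrays in the upper 8 rows and to the left in the lower 8 rows.

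The clone with the largest measured difference in the other direction was AK045826, which has 2 probes on the array, and both were among the 8 most lowered. The probe A_66_P105480 read 0.320 and 0.579 in the myofibroblasts, 31.4 and 9.71 in the fibroblasts and 3.47 and 2.99 in the homogenates. The myofibroblasts were lowest and the fibroblasts highest without overlap, at a log2 difference of -5.34 ± 0.64 (limma adjusted p = 0.013). The probe A_52_P298165 read 0.0868 and 0.0505, 2.05 and 0.755, and 0.224 and 0.270 in the same order of groups. It placed the groups in the same order, and its difference was -4.23 ± 0.57 (limma adjusted p = 0.0165). Fibroblast array 1 was the higher of the 2 fibroblast arrays with both probes.

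AK164328 read 0.386 and 0.295 in the myofibroblasts, 11.2 and 8.24 in the fibroblasts and 2.37 and 2.38 in the homogenates. Its replicates lay close and the groups did not overlap, with a difference of -4.83 ± 0.29 between the sorted groups (limma adjusted p = 0.00449). AK086039 followed the same order, with 0.127 and 0.0855 in the myofibroblasts, 1.87 and 1.65 in the fibroblasts and 0.585 and 0.494 in the homogenates. Its difference was -4.08 ± 0.30 (limma adjusted p = 0.00573). AK031713 read 0.114 and 0.0687 in the myofibroblasts, 1.47 and 0.835 in the fibroblasts and 0.175 and 0.211 in the homogenates. Here the homogenates lay near the myofibroblasts, and the difference between the sorted groups was -3.65 ± 0.42 (limma adjusted p = 0.012).

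The remaining clones of this group were AK082028 at -4.96, AK040829 at -3.93 and AK031960 at -3.62. AK082028 read 0.121 and 0.0851 in the myofibroblasts, 5.72 and 1.75 in the fibroblasts and 0.288 and 0.156 in the homogenates. Its call was lost without either myofibroblast array, at adjusted p of 0.0512 and 0.0665. The A_52_P298165 probe of AK045826 lost its call without myofibroblast array 2 or either homogenate array (adjusted p from 0.056 to 0.0645). AK040829 lost its call without either myofibroblast or either homogenate array (0.0518 to 0.0887), and AK031960 without myofibroblast array 1 (0.0518). AK164328, AK086039, AK031713 and the other probe of AK045826 stayed called with each array left out. With all 8 probes of this direction the homogenate arrays lay between the fibroblast and the myofibroblast arrays. Epithelial marker signal, carried mainly by Scgb1a1, was also lower in the myofibroblasts than in the fibroblasts (summed 10.9 to 16.5 against 70.1 to 119). It was highest in the homogenates, at 778 to 787, where these 8 probes read lower than in the fibroblasts. The part of epithelial signal in the result was not tested.

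Several clones were detected on both arrays of 1 sorted group and on neither array of the other. Only a bound can be given for their fold, written as at least and computed under the main scaling. Each bound divides the mean of the brighter group by that of the dimmer group. In the dimmer group an array's value was raised to the dimmest signal still scored as detected on that array. It was kept where the clone's own signal was higher. That floor is the lowest detected signal of any probe, so the bounds are not guaranteed lower limits. With normexp every clone given a bound, here or below, fell short of it. The differences then were 2.28 for AK084660 and -2.23 for AK044653 on the log2 scale. AK084660 read 1.07 and 0.975 in the myofibroblasts and was not well above background in the fibroblasts, at least 23.8-fold lower (limma adjusted p = 0.00338). AK132829, AK135691 and AK019722 were at least 16.4-fold, 8.18-fold and 8.09-fold higher in the myofibroblasts. In the other direction AK016323 read 2.22 and 0.768 in the fibroblasts and was not well above background in the myofibroblasts, at least 32.3-fold lower (limma adjusted p = 0.0185). AK148881, AK044653 and AK047929 were at least 27.2-fold, 26.1-fold and 18.7-fold lower in the myofibroblasts. The homogenates held AK047929 at 0.481 and 0.663, close to the fibroblasts at 0.827 and 0.693, while AK044653 stood between, at 0.269 and 0.252. The call of AK016323 was lost without either myofibroblast array or fibroblast array 1, with adjusted p from 0.0571 to 0.0694.

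The sizes of the called differences are given beside those of all probes called. The threshold removes small differences from both sets, so a likeness in size is partly fixed by it. Of the 423 clones called lower in the myofibroblasts 62.2% were more than 4-fold lower, against 60.6% of all probes called lower. Of these 423, 253 were detected on all 4 sorted arrays and 137 on neither myofibroblast array. Of the 82 called higher 62.2% were more than 4-fold higher, against 57.9% of all probes called higher, and 37 were detected on all 4 arrays and 40 on neither fibroblast array. For clones undetected in 1 group the fold rests on background signal there and is not a measured size. The clones nearest to the threshold were also read. Just past it lay AK163775 at -1.27, AK170980 at -1.06 and AK082436 at 1.71, with adjusted p from 0.0497 to 0.0498. Just short of it lay AK037412 at -2.15, AK153220 at -1.22 and AK077424 at -1.87, with adjusted p from 0.0501 to 0.0503. The clones just short of the threshold had differences as large as those just past it. The calls just past it were lost without either myofibroblast array, either homogenate array or fibroblast array 1, and for AK163775 also fibroblast array 2, with adjusted p from 0.0602 to 0.159.

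Steady-state fibroblasts and lung homogenate, both from untreated lungs, were compared next, to set the sorted fibroblasts against the whole organ. The median of the clones was close to that of the other probes, and a smaller share of the clones was called in either direction. Among the 2330 clones detected on all 6 arrays the median difference was 0.08, against 0.06 for the other probes, and 43.6% lay below 0 against 46.3%. Of these clones 95 (4.08%) were called higher in the fibroblasts and 62 (2.66%) lower, where 5.03% and 3.84% of all probes of that set were called. Both fibroblast arrays were above both homogenate arrays for 772 clones (33.1%), against 32.6% of all probes, and below for 486 (20.9%), against 23.9%. Over the 3504 clones tested, 163 were called higher and 228 lower, and 13.4% of all probes tested were called, 4.93% higher and 8.51% lower. With no filter 153 of the 6036 clones were called higher and 232 lower, where 3.01% and 5.88% of all probes were called. The split of the calls turned with the scaling, from 58.3% lower with the main one to 37.7% with normexp, 42.9% with quantile and 43.7% with median scaling. The number called was 187 without homogenate array 1 and 153 without homogenate array 2.

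AK013461 had the largest measured difference between fibroblasts and homogenates. It read 0.0759 and 0.0524 in the fibroblasts, 8.28 and 8.20 in the homogenates and 0.0441 and 0.0194 in the myofibroblasts. The homogenates stood alone, with a log2 difference of -7.03 ± 0.47 (limma adjusted p = 0.00158). AK017909, described above, was lower in the fibroblasts than in the homogenates by a log2 difference of -6.25 ± 0.33 (limma adjusted p = 0.000959). AK020764 read 0.128 and 0.0705 in the fibroblasts, 3.25 and 3.40 in the homogenates and 0.111 and 0.146 in the myofibroblasts, and AK139611 had the same pattern. The sorted groups overlapped for both clones. Their differences from the homogenates were -5.13 and -4.96. AK087121 and AK038155 were not well above background in the fibroblasts and were at least 178-fold and 82.8-fold lower there than in the homogenates. Markers of cells that the sorts leave out moved with these clones, with endothelial markers summing to 0.141 to 0.194 in the fibroblasts and 44.1 to 47.1 in the homogenates, and the part of those cells was not tested.

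Clones higher in the fibroblasts than in the homogenates were led by AK157178 at 4.29, AK206280 at 4.21, AK087429 at 3.96 and AK082028 at 3.90. AK206280 read 13.4 and 6.86 in the fibroblasts, 0.612 and 0.441 in the homogenates and 1.14 and 1.74 in the myofibroblasts. Its groups did not overlap, and the fibroblasts exceeded the homogenates by 4.21 ± 0.45 (limma adjusted p = 0.00554). AK087429 read 1.61 and 1.14 in the fibroblasts, 0.0950 and 0.0796 in the homogenates and 0.382 and 0.455 in the myofibroblasts. The order of the groups was the same as for AK206280. AK134520 was not well above background in the homogenates and was at least 12.6-fold higher in the fibroblasts. AK030741 was not well above background there either, but its own signals of 0.0429 and 0.0403 were above the dimmest detected ones, so its 11.9-fold difference is the measured ratio. Without homogenate array 1 or 2, AK157178 lost its call (adjusted p of 0.056 and 0.0872) and so did AK082028 (0.0764 and 0.127). AK134520 lost its call without fibroblast array 1 or homogenate array 2, at adjusted p of 0.0723 and 0.0703.

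Against the homogenates the myofibroblasts again showed the clones shifted lower relative to the other probes. This comparison shares its myofibroblast arrays with the first and its homogenate arrays with the second. Among the 2330 clones detected on all 6 arrays the median difference was -0.43, against 0.05 for the other probes, and 70.7% lay below 0 against 47.7%. The clones' own median depended on the scaling, at -0.02 with median scaling, -0.12 with normexp, -0.21 with quantile scaling and -0.93 with the authors' constants. The other probes gave 0.46, 0.11, 0.13 and -0.44 in the same order. Shares below 0 and orders of arrays are those of the main scaling. Of these clones 49 (2.10%) were called higher and 241 (10.3%) lower, where 7.74% and 7.3% of all probes of that set were called. Predicted non-coding RNAs came close to the clones, with a median of -0.35, 68.2% below 0, 2.41% called higher and 8.51% lower. RefSeq mRNA probes had a median of 0.18, with 42.1% below 0. The myofibroblast arrays were below both homogenate arrays for 1266 clones (54.3%), against 36.3% of all probes, and above for 412 (17.7%), against 38.6%. They were below all 4 other arrays for 965 clones (41.4%), against 23.6% of all probes, and above all 4 for 191 (8.20%), against 23%.

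In the 4 ranges of mean signal 7.89%, 12.7%, 12.9% and 7.89% of these clones were called lower, against 5.52%, 9.65%, 9.37% and 5.21% of the other probes. Over the larger set of tested clones the order was not the same throughout, with 25.7% of the clones against 29.9% of the other probes called lower in the dimmest range.

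Of the 3420 clones tested between myofibroblasts and homogenates, 105 were called higher and 539 lower, and 20.4% of all probes tested were called, 7.62% higher and 12.8% lower. With no filter 496 of the 6036 clones were called lower (8.22%), which is close to the 8.51% of all probes, and 99 higher (1.64%), against 4.61%. On that whole set the clones therefore differed from the background mainly by fewer higher calls. The called clones were 83.7% lower with the main scaling, 70.3% with normexp, 71.9% with quantile, 60.9% with median scaling and 94.5% with the authors' table. The number called was 398 without myofibroblast array 2, 258 without homogenate array 1 and 224 without homogenate array 2.

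AK029719 had the largest measured rise in myofibroblasts over homogenates. It read 3.81 and 4.0 in the myofibroblasts, 0.585 and 0.832 in the fibroblasts and 0.101 and 0.0840 in the homogenates. The groups were graded without overlap, and the myofibroblasts exceeded the homogenates by 5.40 ± 0.29 (limma adjusted p = 0.000957). AK205936 read 81.6 and 97.0 in the myofibroblasts, 25.2 and 27.1 in the fibroblasts and 6.19 and 5.56 in the homogenates. Its groups did not overlap either, at 3.92 ± 0.25 over the homogenates (limma adjusted p = 0.00127). AK199574 and AK196015 were higher by 4.13 and 3.88, and AK196015 lost its call without homogenate array 2 (adjusted p = 0.0509). AK035610 and AK028812 were not well above background in the homogenates and were at least 314-fold and 59.3-fold higher in the myofibroblasts.

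In the lower direction AK033406 showed a gradient, with 0.264 and 0.223 in the myofibroblasts, 2.70 and 1.76 in the fibroblasts and 7.25 and 6.99 in the homogenates. The 3 groups were apart, and the myofibroblasts were below the homogenates by a log2 difference of -4.87 ± 0.31 (limma adjusted p = 0.0013). AK079292 read 0.0796 and 0.0788 in the myofibroblasts, 0.0708 and 0.0472 in the fibroblasts and 2.60 and 2.34 in the homogenates. AK087353 had 0.0591 and 0.0872, 0.145 and 0.110, and 2.23 and 2.16 in the same order. Both were bright in the homogenates and dim in the 2 sorted groups. Their differences between myofibroblasts and homogenates were -4.96 and -4.94, and AK020764 followed at -4.70. AK013461 and AK017935 were not well above background in the myofibroblasts and were at least 194-fold and 68.8-fold lower there. As in the comparison above, endothelial and leukocyte marker signal was far lower in the sorted group, and its part was not tested.

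Some clones were detected on both arrays of 1 group and on no array of the other groups. They numbered 35 for the myofibroblasts, 52 for the fibroblasts and 162 for the homogenates, or 0.580%, 0.861% and 2.68% of the clones, against 0.672%, 0.425% and 3.04% of the other probes. The brightest in the myofibroblasts were AK132829 at 0.974 and 0.506, AK135691 at 0.434 and 0.283 and AK009121 at 0.348 and 0.346. In the fibroblasts they were AK087604 at 0.330 and 0.456, AK053073 at 0.461 and 0.214 and AK080734 at 0.340 and 0.208. In the homogenates AK017935 reached 2.49 and 3.11, AK008094 1.98 and 1.91 and AK037310 1.74 and 1.39.

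At the opposite end, a few clones were level across the groups. AK163044 read 533 and 546 in the myofibroblasts, 512 and 521 in the fibroblasts and 511 and 501 in the homogenates, with an SD of 0.05 on the log2 scale over the 6 arrays. The probe A_55_P2209308 of AK079287 read between 414 and 457, and AK165204 between 314 and 346, with the same SD to 2 decimals. These clones were chosen for their small SD, so no test is given. The other probe of AK079287 was not level. It gave -2.59 between myofibroblasts and homogenates (limma adjusted p = 0.0284) where the level probe gave 0.05.

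The accessions with 2 probes show how far a value belongs to a clone or to a probe. Between the sorted groups 46 accessions had both probes tested. Both probes were called in the same direction for 5 of them, 1 of the 2 for 12 and neither for 29, and no accession had probes called in opposite directions. The 5 were AK045005, AK045826, AK050838, AK088293 and AK171382, all lower in the myofibroblasts. Only 82 of the 3204 tested clones were called higher, so opposite calls had little room to occur. The probes of AK045005 gave -3.02 and -3.02, and those of AK088293 -2.17 and -1.82. The 2 probes had the same sign for 35 of the 46 accessions, with a median gap of 0.51 between them on the log2 scale. Of all tested clones 73.9% lay below 0, so a shared sign is partly set by that share. The gap was over 2-fold for 13 accessions. AK087728 was among them, with -3.42 for 1 probe (adjusted p = 0.0242) and -1.18 for the other (adjusted p = 0.128), and was picked after its values were seen. The widest gap was 4.34, for AK080981, whose probes had opposite signs, at -1.71 and 2.64, with neither called. Between fibroblasts and homogenates both probes were called for 2 of 55 accessions, and between myofibroblasts and homogenates for 7 of 50.

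The lower signal in myofibroblasts was found in most sets of the clones. Accessions below AK100000 numbered 4505, of which 1598 were detected on all 6 arrays, and their median difference between the sorted groups was -0.51. For the 1471 accessions from AK100000 to AK199999 the median over 687 was also -0.51. The 60 accessions of AK200000 and above differed from both, with a median of 0.15 over 45 and 42.2% below 0. They were also detected more often, on both arrays of 85.0% in the myofibroblasts, against 40.5% and 51.1% of the lower blocks. Grouped by the prefix of the probe name, the medians were -0.38 for A_51, -0.72 for A_52, -0.51 for A_55, -0.91 for A_65 and -0.36 for A_66. These sets overlap with the accession blocks and were not tested against each other.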

How the data were processed

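Spot intensity values in the deposited scanner files were written by Agilent Feature Extraction 12.0.3.1, per the submitters' processing notes. Each array held 59305 non-control spots for 56605 probes, and 6054 spots were for the AK clones. Labelled RNA was made from 5.8 ng of total RNA with a low-input kit, per the labels' protocols. The authors also deposited a normalized intensity table, in which each array's processed signal was multiplied by 1 constant; it served as an alternative, and its 3 columns of group means were not used.

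Here the log2 of the processed signal was taken less that of the array's 75th percentile, which lay between 224 and 282. Outlier spots were dropped, and replicate spots of a probe were averaged. A probe was tested where either group had it well above background on both of its arrays. The two-sided test used lmFit and eBayes of limma 3.58.1 (R 4.3.3) in a single fit of the 6 arrays and 3 groups, with 3 residual degrees of freedom. Benjamini-Hochberg adjustment ran over all probes tested, and a clone was called at an adjusted p under 0.05. The number of arrays limits the precision. The fit was tested on simulated data.

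Clones were named by a rule: the 8 largest measured and the 4 largest bounded differences each way between the sorted groups (4 and 2 in the other comparisons), the 3 brightest clones of each group detected nowhere else, the 3 with the smallest SD, and 3 on either side of the threshold. The members, lists and rules were chosen with earlier results of these data known. Alternatives were normexp (offset 50, on the median spot signal, since the files hold no mean one), quantile scaling, scaling on the median, the deposited table, the filter on dim probes, 1 probe per accession, the arrays fitted, array weights, a variance trend, the replicate number as a block and each array left out. The within-2-fold filter, the signal ranges and the medians by scaling were added after the data were seen.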

Additional observations from a re-analysis of the deposited data

How the results depend on the processing

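No named difference reversed its sign under any alternative run. Every named difference was smaller in size with normexp, by amounts that varied. Between the sorted groups AK199574 went from 3.49 to 1.97 and AK031713 from -3.65 to -2.03, while AK081273 went from 2.86 to 2.84. Of 848 values for named clones under alternatives, 737 kept their side of the threshold, 98 lost it and 13 gained it. Between the sorted groups, 505 clones called became 1021 with the authors' table, 208 with the filter on all 4 arrays, 154 with only the 4 sorted arrays fitted, 240 with array weights and 316 with the replicate number as a block, and ranged from 154 to 780 with 1 array left out. Between fibroblasts and homogenates, 391 became 116 with the filter on all 4 arrays and ranged from 153 to 567 with 1 array left out; the replicate block gave 336. Between myofibroblasts and homogenates, 644 became 1330 with the authors' table, 197 with that filter and 1155 with array weights, and ranged from 224 to 891 with 1 array left out; the block gave 482. The replicate numbers did not pair the arrays, whose same-numbered deviations correlated between -0.00095 and 0.024 over groups. The cause of these changes was not tested. Lower calls made up 83.8% between the sorted groups with the main scaling and 94.3% with the authors' table, which moved the median of all tested probes to -0.52 there and to -0.63 between myofibroblasts and homogenates. The clones' median difference less that of other probes became -0.22 with normexp between the sorted groups, -0.23 with normexp and -0.34 with quantile scaling between myofibroblasts and homogenates, and 0.064 with quantile scaling between fibroblasts and homogenates. Normexp reduced the replicate SD of the clones to 0.35, 0.45 and 0.23 in myofibroblasts, fibroblasts and homogenates. Signal over background limits what can be said of the 1655 clones detected on no array.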
